A study of Mus musculus with 15 samples.

Results

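The Schlafen family was described here by the 7 genes of the deposited table named Slfn1, Slfn2, Slfn3, Slfn4, Slfn5, Slfn8 and Slfn9, taken by symbol from 26844 genes. The family itself was selected on expression values of these same libraries, with no record of which comparison weighed, so its fold changes and adjusted p-values are descriptions and give no independent support for a difference. The tissue for RNA sequencing was distal jejunum, the far end of the middle small intestine. The mice were C57BL/6 males, 13 to 15 weeks old. One genotype was wild-type (WT), and the other a global knockout (KO) without Aster-B and Aster-C, so the loss was not limited to the gut. Aster proteins move cholesterol that reaches the plasma membrane on to the endoplasmic reticulum. Every mouse ate a diet with 0.08% cholesterol, called control here, or the same diet with 0.01% ezetimibe, which inhibits NPC1L1 and thereby the uptake of cholesterol from the gut lumen. There were 4 libraries of WT control, 4 of WT ezetimibe, 3 of KO control and 4 of KO ezetimibe. The labels do not say whether each library came from a separate mouse, so the spread behind each p-value is that of these libraries and may be partly technical.

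The deposited values were normalised counts, that is, reads per gene divided by a size factor that puts the libraries on one scale. Reads per library, recovered from these values, ran from 13855034 to 19307079. The 14 enterocyte markers examined summed to between 950128 and 1455377 normalised counts in every library. Of the listed genes with values in the deposited data, none was at 0 in all libraries. Listed genes without values there are not covered. Gramd1c, which encodes Aster-C, lay between 71.8 and 194 normalised counts in the KO libraries and between 1059 and 1845 in the WT libraries. Gramd1b, which encodes Aster-B, lay between 962 and 2086 in KO and between 2274 and 4046 in WT. Neither gene overlapped between the genotypes. The sources used here do not give the deleted exons. WT control replicate 4 and KO ezetimibe replicate 3 lay at opposite ends of the first principal component, which held 27.7% of the variance.

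Schlafen proteins are divided into short, intermediate and long classes, and only the long ones carry a helicase-like region behind the domain that all members share. Many Schlafen genes are induced by type I interferon through a complex of transcription factors that includes STAT2, and they are best known from lymphocytes and myeloid cells, where they accompany quiescence and differentiation. In mice Slfn1 and Slfn2 are short, Slfn3 and Slfn4 intermediate, and Slfn5, Slfn8 and Slfn9 long. Slfn2 keeps T cells quiescent, Slfn4 is known from myeloid cells, and rodent Slfn3 has been studied in enterocyte differentiation.

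The 7 genes lie in one cluster on chromosome 11. GENCODE M21 was used on GRCm38, the assembly also called mm10. There the cluster, with its family pseudogene, the further family gene Slfn14 at its end and annotated neighbours, spans 82942341 to 83286726, or 344 kb. Of the 7 genes the long ones come first. Slfn5 lies at 82951349 to 82964840 on the plus strand, Slfn9 at 82978390 to 82991830 on the minus strand and Slfn8 at 83002158 to 83020810 on the minus strand. The short genes Slfn2 (83065112 to 83070678) and Slfn1 (83116849 to 83122670) and the intermediate genes Slfn4 (83175186 to 83190216) and Slfn3 (83191330 to 83215154) follow on the plus strand. Coding sequences measured 1011 bases in Slfn1, 1134 in Slfn2, 1806 in Slfn4, 1920 in Slfn3, 2652 in Slfn5, and 2730 in both Slfn8 and Slfn9. Slfn8 and Slfn9 were the most alike pair, with 92.7% of aligned coding bases identical, followed by Slfn3 and Slfn4 with 91.5%. The least alike pair, Slfn1 and Slfn5, shared 56.0%.

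Such likeness bears on the counts, because a short read from a shared stretch cannot be assigned to 1 gene. Of the distinct 50-base stretches in its annotated transcripts, Slfn3 shared 545 of 3409 with other genes. The share was 14.6% for Slfn8, 11.9% for Slfn9, 11.3% for Slfn4, 11.1% for Slfn5, 4.27% for Slfn2 and 0.606% for Slfn1. The partner with the largest share was Slfn10-ps for Slfn8 (10.1%) and Slfn9 (8.10%), Slfn5os for Slfn5 (7.38%), and the other of the pair for Slfn3 (7.39%) and Slfn4 (6.28%). Slfn10-ps is a pseudogene of the family inside the cluster. Slfn5os is an antisense transcript that overlaps Slfn5, and another, Gm20234, overlaps Slfn2 at a mean of 3.07 normalised counts. No source used here says whether counting used strand, so reads of these partners cannot be told apart from Slfn5 or Slfn2.

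Because type I interferon acts through interferon-stimulated response elements, the RefSeq promoter windows of GRCm38.p6 (250 bases before to 50 after each start) were searched for the core of that element, GAAA and again GAAA with any 2 bases between them, or TTTC and TTTC on the other strand. All 7 genes had a window, and Slfn8 had 2, for 2 annotated starts, which both held the core. The core was present for Slfn5, Slfn8 and Slfn9 and not found for Slfn1, Slfn2, Slfn3 and Slfn4. It was present in 3.44% of all 32851 windows, and in windows of 12 of the 19 genes of the interferon-stimulated list (described below) that had one. The core of the gamma-activated site, TTCNNNGAA, which reads the same on both strands, was found for none of the 7 genes and in 8.30% of all windows. The 250 bases before the start are shown for the long genes, where the core stands in capitals, and for Slfn2, which has no match. They read 5′ to 3′ on each gene's strand, from chr11:82951852-82952101 (plus) for Slfn5, chr11:82991831-82992080 (minus) for Slfn9, chr11:83020811-83021060 (minus) for Slfn8 and chr11:83064862-83065111 (plus) for Slfn2.
Slfn5: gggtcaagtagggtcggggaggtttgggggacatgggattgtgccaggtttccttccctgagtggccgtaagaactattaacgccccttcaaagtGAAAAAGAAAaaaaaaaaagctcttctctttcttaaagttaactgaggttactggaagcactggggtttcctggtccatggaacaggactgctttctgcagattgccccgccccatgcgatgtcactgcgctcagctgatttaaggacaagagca
Slfn9: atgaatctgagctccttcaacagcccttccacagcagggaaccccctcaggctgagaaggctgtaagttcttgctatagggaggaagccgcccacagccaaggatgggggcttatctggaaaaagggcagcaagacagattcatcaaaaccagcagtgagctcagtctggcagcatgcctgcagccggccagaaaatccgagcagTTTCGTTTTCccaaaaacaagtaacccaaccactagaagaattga
Slfn8: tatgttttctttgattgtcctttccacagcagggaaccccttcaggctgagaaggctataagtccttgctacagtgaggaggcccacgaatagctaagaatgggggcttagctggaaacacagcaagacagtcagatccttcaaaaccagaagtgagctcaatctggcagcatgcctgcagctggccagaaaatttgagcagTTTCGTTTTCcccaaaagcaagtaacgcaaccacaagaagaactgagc
Slfn2: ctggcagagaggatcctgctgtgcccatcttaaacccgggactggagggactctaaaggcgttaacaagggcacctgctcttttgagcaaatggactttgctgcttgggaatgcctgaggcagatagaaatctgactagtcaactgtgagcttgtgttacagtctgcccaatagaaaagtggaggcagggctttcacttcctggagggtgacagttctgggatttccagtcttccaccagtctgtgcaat
Slfn8 and Slfn9 carry the same letters in the same orientation, with the first base at −48 and −45 from their starts, and 83.4% of the aligned bases of their full windows are identical (246 of 295). In Slfn5 the first base of the core is at −155, in the opposite orientation. The RefSeq start used for Slfn5 lies inside the GENCODE gene, behind the first exon of another annotated transcript. A match describes the letters only, and no match says nothing of sites outside these windows.

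Levels were compared between genes as normalised counts per kb of annotated exon, averaged over the 15 libraries. Slfn2 was the highest at 254 (115 to 469 across libraries), followed by Slfn4 at 85.4 (57.8 to 136), and this order held in 15 of 15 libraries. Slfn9 at 17.7 (6.67 to 42.7) and Slfn5 at 12.9 (3.32 to 36.8) overlapped, with Slfn9 above Slfn5 in 10 of 15 libraries. Slfn5 was likewise above Slfn8, at 6.82 (3.78 to 10.6), in 10 libraries. Slfn8 was above Slfn1, at 4.71 (1.94 to 9.11), in 12. Slfn3 had 0.648 (0 to 1.43) and was the lowest in each library. Within a gene, the highest library was 11.1 times the lowest for Slfn5, 6.41 times for Slfn9, 4.08 times for Slfn2 and 2.35 times for Slfn4.

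**Figure D1:**
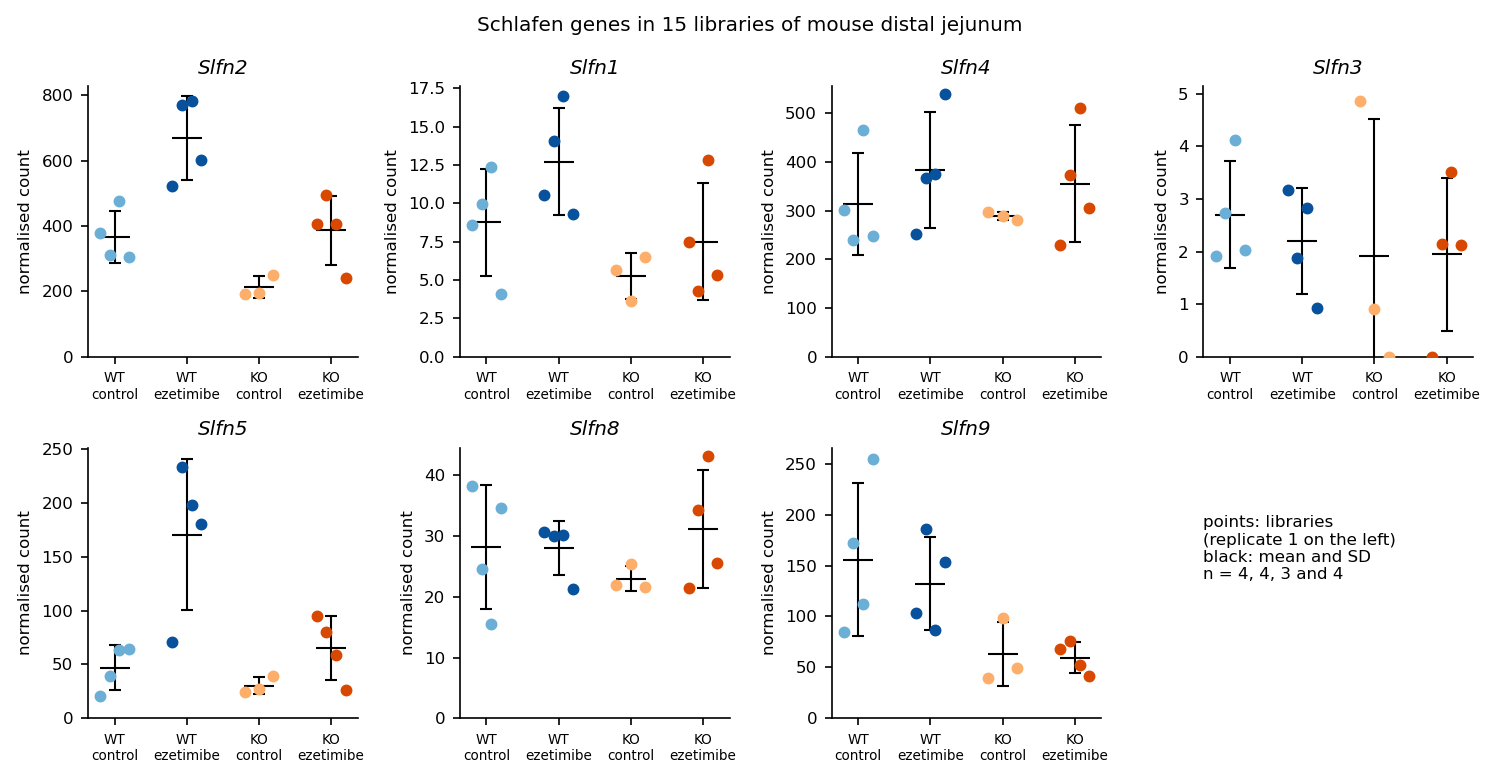
Normalised counts of the 7 Schlafen genes (y axis, from 0, a scale of its own for each gene) in the 4 groups of genotype and diet (x axis). Points are libraries and black lines give the mean and SD. The 4 WT ezetimibe libraries are the highest group for Slfn2 (523 to 781), and 7 KO libraries lie low for Slfn9 (39.8 to 98.6).

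Differences were tested with limma on log2(normalised count + 1), which understates the change of low genes. Genes with at least 10 normalised counts in at least 3 libraries were tested, which left 14299 genes and 6 of the 7 members, without Slfn3. P-values were adjusted over all 14299 genes and a gene was called under 0.05. Averaged over both diets, Slfn2 and Slfn9 fell in KO, and averaged over both genotypes, Slfn2 and Slfn5 rose with ezetimibe. These averages come from the same fit and were added after the values had been seen. No member was called within a single diet or a single genotype. In bulk tissue, fewer cells of a type and less RNA per cell cannot be told apart.

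In KO against WT on the control diet, limma called 0 of 6 members and 0.371% of all genes tested. An unadjusted p under 0.05 was reached by 2 members (Slfn2 and Slfn9) and by 14.7% of all genes. All 6 fold changes were negative, with a median of −0.55 (log2) against −0.0054 over all genes. One member, Slfn2, had every KO library below every WT library, as had 5.57% of all genes, while 0 members had them all above, against 6.59% of all genes. DESeq2 on the recovered reads, without a filter, called Slfn2 and Slfn9, and 3.19% of the 13300 genes to which it gave an adjusted p. It gave none to Slfn1 and Slfn3. The DESeq2 shares below are likewise over the genes with an adjusted p, whose number differs between comparisons.

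On ezetimibe, limma called 0 of 6 members and 0.00699% of all genes. Slfn2, Slfn5 and Slfn9 reached an unadjusted p under 0.05, as did 16.4% of all genes. There were 5 negative fold changes and 1 positive, that of Slfn8, with a median of −0.79 against −0.0018 over all genes. Slfn1, among the 5, passed the filter only with the WT ezetimibe libraries, so its direction here is no support. Slfn2 and Slfn9 did not overlap between the genotypes and were lower in KO, as were 4.84% of all genes, while 0 members were higher without overlap, against 5.09%. DESeq2 without a filter called 1 member, Slfn2, and 0.613% of 11747 genes with an adjusted p.

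In WT, ezetimibe against control gave 0 of 6 members called by limma and 0.217% of all genes. Slfn2 and Slfn5 reached an unadjusted p under 0.05, as did 5.08% of all genes, and both had every ezetimibe library above every control library, as had 2.26% of all genes, while 0 members lay below without overlap, against 1.21%. The median was 0.42 against −0.0096 over all genes, with 5 positive and 1 negative, that of Slfn9. Slfn1, among the 5, passed the filter only with the WT ezetimibe libraries, so its direction here is no support. DESeq2 without a filter called Slfn2 and Slfn5, and 0.728% of 12781 genes with an adjusted p. In KO the same contrast gave 0 of 6 members called by limma and 0.727% of all genes. Slfn2 was the 1 member with an unadjusted p under 0.05, as were 22.9% of all genes, and 0 members were free of overlap, against 8.64% of genes higher and 9.38% lower. All 6 were positive with a median of 0.37, against 0.0056 over all genes. DESeq2 without a filter called 1 member, Slfn2, and 9.45% of 11747 genes with an adjusted p.

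The genotype by ezetimibe interaction, which asks whether the drug response differed between KO and WT, was called by limma for 0 of 6 members and 0% of all genes. No interaction of a member had an unadjusted p under 0.05, which 7.02% of all genes had. DESeq2 without a filter called 0.0112% of 26819 genes with an adjusted p in this interaction and no member. In the average over both diets, limma called 2 members lower in KO and 4.04% of all genes, with 4 members and 22.2% of all genes at an unadjusted p under 0.05. DESeq2 without a filter called Slfn2, Slfn5 and Slfn9 in that average, and 8.39% of 14338 genes with an adjusted p. In the average over both genotypes, limma called 2 members higher with ezetimibe and 2.48% of all genes, with 2 members and 20.2% of all genes at an unadjusted p under 0.05. There DESeq2 without a filter called Slfn2 and Slfn5, and 6.68% of 13819 genes with an adjusted p. The 2 contrasts within a diet each share a group with the 2 contrasts within a genotype, so the values of these contrasts are not independent of each other.

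**Figure D2:**
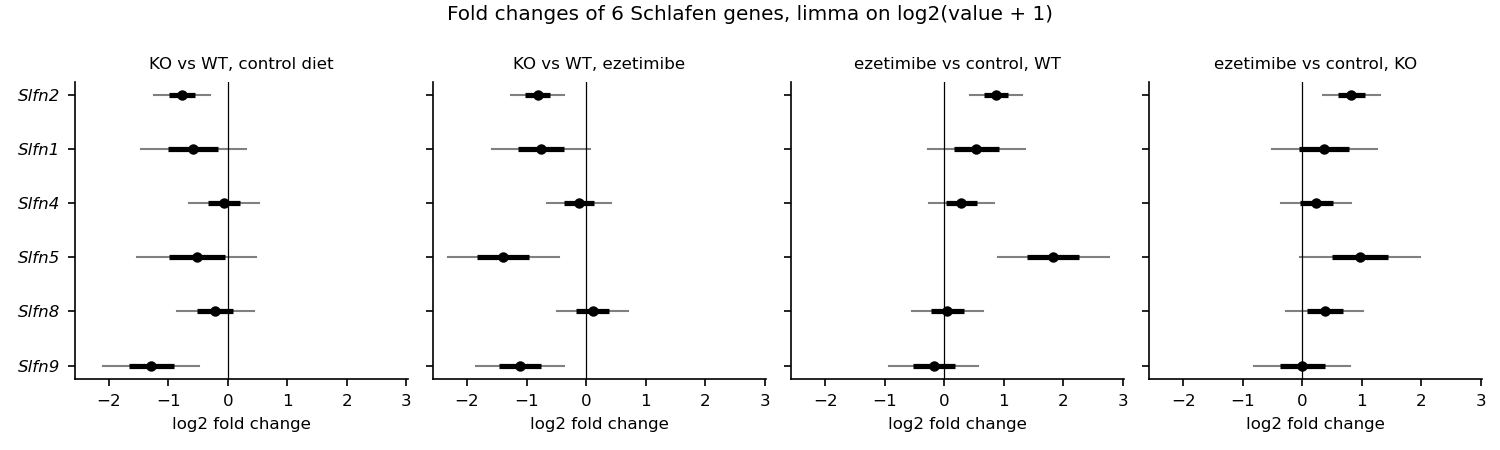
Log2 fold changes (x axis, on log2(normalised count + 1)) of the 6 tested Schlafen genes (y axis) in the 4 comparisons. Points are limma estimates, thick bars 1 SE and thin bars 95% intervals. Slfn2 lies between −0.82 and −0.77 in KO and between 0.83 and 0.87 with ezetimibe, while Slfn4 and Slfn8 intervals all include 0.

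Slfn2 was the most abundant member and the one with an unadjusted p under 0.05 in each of the 4 comparisons. The WT control libraries had 377, 312, 476 and 304 normalised counts, and the WT ezetimibe libraries 523, 771, 781 and 603. The KO control libraries had 192, 195 and 251, and the KO ezetimibe libraries 406, 495, 405 and 242. All WT ezetimibe libraries were above all others, all KO control libraries were below all WT control libraries, and KO ezetimibe overlapped WT control, with its replicate 4 inside the KO control range.

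Group means of Slfn2 were 367 ± 79.7 in WT control, 669 ± 127 in WT ezetimibe, 212 ± 33.7 in KO control and 387 ± 106 in KO ezetimibe (SD, n = 4, 4, 3 and 4). KO differed from WT by −0.77 ± 0.223 on control and by −0.82 ± 0.207 on ezetimibe (log2 fold change and SE, limma adjusted p = 0.120 and 0.223). Ezetimibe differed from control by 0.87 ± 0.207 in WT and by 0.83 ± 0.223 in KO (limma adjusted p = 0.172 and 0.0629). None of the 4 passed. Without KO ezetimibe replicate 4, the lowest of its group, the response in KO was 1.04 and passed (limma adjusted p = 0.0149). That was the 1 passing fit of 7 that each left out 1 library, and the limma adjusted p reached 0.265 in the rest.

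Over both diets together, Slfn2 fell in KO by 0.79 ± 0.152 (log2, with SE, limma adjusted p = 0.0205). Averaged over both genotypes, it rose with ezetimibe by 0.85 ± 0.152 (log2, SE, limma adjusted p = 0.00935). The rise passed in each of 15 fits that left out 1 library, and the fall in 14. Without KO control replicate 1 KO differed by −0.76 (limma adjusted p = 0.0673), and genes called in all went from 578 to 33. The response to ezetimibe differed between the genotypes by −0.04 (log2), with a 95% interval from −0.687 to 0.604 (limma adjusted p = 0.977). In the authors' deposited table Slfn2 stood at −0.79 ± 0.233 (log2, SE, adjusted p = 0.0291) on control and at −0.79 ± 0.212 (adjusted p = 0.0397) on ezetimibe. DESeq2 without a filter, run here on reads recovered from their values, gave the same numbers and is not a separate result.

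Markers of T and NK cells, the lymphocytes from which Slfn2 is best known, differed along with it. The 18 markers had summed normalised counts of 4996 to 8271 in WT control, 7100 to 9793 in WT ezetimibe, 3828 to 5151 in KO control and 5296 to 7296 in KO ezetimibe. As for Slfn2, WT ezetimibe was the highest group and KO control the lowest. Unlike Slfn2, the list in WT control overlapped that in each other group. Of the 17 tested markers, 17 were lower in KO on control and 16 on ezetimibe, and 16 were higher with ezetimibe in each genotype, with 0 called by limma in any of these 4 comparisons. Their medians were −0.62, −0.50, 0.41 and 0.51 (log2). Over both diets together, 8 of 17 fell in KO, where limma called 4.04% of all genes. Cd3g, a chain of the T cell receptor complex, fell by 0.60 ± 0.128 and Itgae, an integrin of intraepithelial lymphocytes, by 0.70 ± 0.163 (log2, SE, limma adjusted p = 0.0244 and 0.0313). Lower levels in KO were not limited to T and NK cell markers. Of 7 B cell markers, 7 were lower in KO on control and 7 on ezetimibe (medians −1.75 and −1.78). With ezetimibe 5 of 7 were higher in each genotype (medians 0.26 in WT and 0.06 in KO). In these comparisons 0 B cell markers had an unadjusted p under 0.05. The part of lymphocytes in the Slfn2 differences was not tested.

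**Figure D3:**
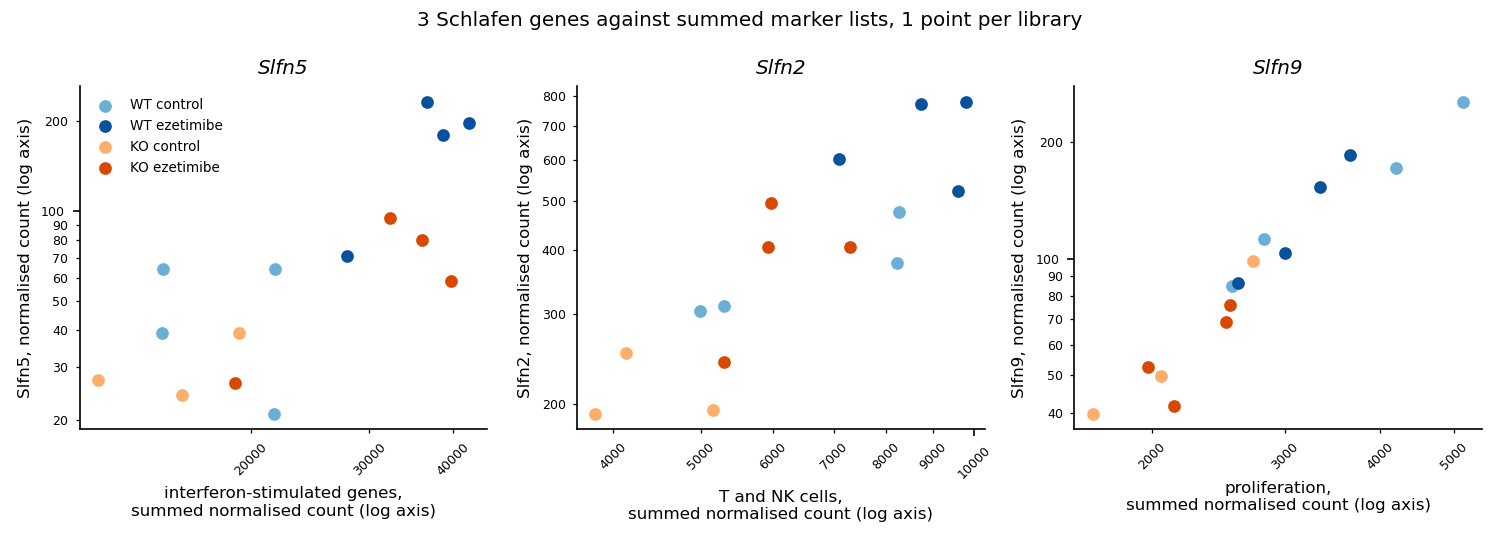
Normalised counts of Slfn5, Slfn2 and Slfn9 (y axes, log scale) against the summed normalised counts of interferon-stimulated genes, T and NK cell markers and proliferation genes (x axes, log scale). Each point is 1 library, coloured by group. In the right panel Slfn9 runs from 39.8 in a KO control library to 255 in a WT control library, the 2 ends of the proliferation sums, and the 1 KO library at 98.6 lies among WT libraries.

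Slfn5, a long member known as a repressor of transcription that interferon induces, had the widest fold range over the libraries. Normalised counts were 21.0, 39.1, 63.9 and 64.2 in WT control and 70.8, 233, 198 and 180.1 in WT ezetimibe. They were 24.3, 27.1 and 39.0 in KO control and 95.3, 80.4, 58.4 and 26.6 in KO ezetimibe. In WT every ezetimibe library was above every control library, though replicate 1 only by a small margin. KO ezetimibe overlapped each of the other groups.

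The mean of Slfn5 was 47.0 ± 21.0 in WT control, 170.5 ± 70.0 in WT ezetimibe, 30.2 ± 7.77 in KO control and 65.2 ± 29.8 in KO ezetimibe (SD, n = 4, 4, 3 and 4). With ezetimibe its log2 fold change was 1.84 ± 0.438 in WT, a ratio of 3.57 (SE, limma adjusted p = 0.172), and 0.97 ± 0.473 in KO, a ratio of 1.96 (SE, limma adjusted p = 0.234). These 2 responses differed by −0.86 ± 0.644 (log2, SE, 95% interval −2.23 to 0.504, limma adjusted p = 0.732). KO differed from WT by −0.52 ± 0.473 on control and by −1.39 ± 0.438 on ezetimibe (log2, with SE, limma adjusted p = 0.659 and 0.225). Without WT ezetimibe replicate 1, the lowest of its group, the response in WT was 2.21 and passed (limma adjusted p = 0.0471). That was the 1 passing fit of 8 that each left out 1 library, and the limma adjusted p reached 0.541 in the rest.

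Averaged over both genotypes, Slfn5 rose with ezetimibe by 1.40 ± 0.322 (log2, SE, limma adjusted p = 0.0342). This call held in 7 of 15 fits that left out 1 library and ended without replicate 2 of WT control, replicates 2, 3 or 4 of WT ezetimibe, 1 or 2 of KO control, or 2 or 3 of KO ezetimibe, where the limma adjusted p lay between 0.0579 and 0.0909. The estimate stayed between 1.24 and 1.59 over the 15 fits. Where the call ended, genes called in all fell as well, from 354 in the main fit to between 150 and 283. Over both diets, KO differed from WT by −0.96 ± 0.322 (log2, with SE, limma adjusted p = 0.0987). That value passed without WT control replicate 1, at −1.12 (limma adjusted p = 0.0367), and with DESeq2, at −1.02 (adjusted p = 0.0184). It passed in 1 of 15 fits that left out 1 library, and the limma adjusted p reached 0.206 in the rest.

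The other genes of the interferon pathway were taken from lists of 28 interferon-stimulated genes and of 22 ligands, receptors and signalling genes. Summed normalised counts of the stimulated genes were 14696 to 21690 in WT control, 27822 to 42225 in WT ezetimibe, 11814 to 19201 in KO control and 18916 to 39725 in KO ezetimibe. The diets did not overlap in WT. In KO, replicate 4 of ezetimibe, also the lowest of its group for Slfn2 and Slfn5, lay inside the control range. With ezetimibe, 27 of 28 were higher in WT and 28 of 28 in KO, with medians of 1.21 and 1.07 (log2). One passed in WT, Isg15, which encodes a ubiquitin-like modifier, at 1.40 ± 0.255 (log2, SE, limma adjusted p = 0.0275), and 0 passed in KO. At an unadjusted p under 0.05 there were 26 in each genotype, against 5.08% of all genes in WT and 22.9% in KO. Averaged over both genotypes, 23 of 28 rose and 0 fell, where limma called 2.48% of all genes. Oas2, a sensor of double-stranded RNA, rose by 1.63 ± 0.253 and Ifit1, which binds viral RNA, by 1.52 ± 0.247 (log2, SE, limma adjusted p = 0.00462 and 0.00569). In KO the list medians were −0.33 on control and −0.42 on ezetimibe, with 0 called. At an unadjusted p under 0.05 there were 3 and 9 of 28, against 14.7% and 16.4% of all genes.

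Of the ligands, receptors and signalling genes, 19 were in the table and 17 were tested. Ifnb1, Ifna4 and Ifnl3 were not analysed here. Stat2, a subunit of the complex that type I interferon activates, had 0.70 ± 0.182 in WT and rose in KO by 0.97 ± 0.196 with ezetimibe (log2, SE, limma adjusted p = 0.256 and 0.0431). Irf7, which amplifies interferon production, had 0.81 ± 0.184 in WT and 0.70 ± 0.199 in KO (log2, SE, limma adjusted p = 0.133 and 0.0701). Averaged over both genotypes, 5 of 17 rose with ezetimibe and 0 fell, where limma called 2.48% of all genes. Stat2 rose by 0.84 ± 0.134 and Irf7 by 0.75 ± 0.135 (log2, SE, limma adjusted p = 0.00527 and 0.00949). For KO against WT, 0 were called on either diet. The lists were drawn up with earlier results of these data known, and the part of interferon signalling in the differences of Slfn2 and Slfn5 was not tested.

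Slfn9 and Slfn8 are neighbours with nearly the same coding sequence, and Slfn9 was called lower in KO over both diets while Slfn8 was not. That difference between the genes was not tested. Slfn9 had 85.0, 172, 112 and 255 normalised counts in WT control and 103, 186, 86.8 and 153 in WT ezetimibe. It had 39.8, 98.6 and 49.8 in KO control and 68.5, 76.1, 52.5 and 41.5 in KO ezetimibe. All KO ezetimibe libraries were below all WT ezetimibe libraries. On control, KO replicate 2 overlapped WT replicate 1.

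Slfn9 means were 156 ± 75.2 in WT control, 132 ± 45.5 in WT ezetimibe, 62.7 ± 31.5 in KO control and 59.7 ± 15.6 in KO ezetimibe (SD, n = 4, 4, 3 and 4). In KO the log2 fold change was −1.28 ± 0.379 on control and −1.11 ± 0.351 on ezetimibe (SE, limma adjusted p = 0.127 and 0.225). With ezetimibe it was −0.18 ± 0.351 in WT (95% interval −0.921 to 0.570) and 0.00046 ± 0.379 in KO (95% interval −0.805 to 0.806), with a limma adjusted p of 0.999 and 1.00. Averaged over both diets, Slfn9 fell in KO by 1.20 ± 0.258 (log2, SE, limma adjusted p = 0.0252), to a ratio of 0.436.

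That call held in 10 of 15 fits that left out 1 library. It ended without WT control replicate 2, WT ezetimibe replicate 2, KO control replicate 1 or 3, or KO ezetimibe replicate 4, where the limma adjusted p reached at most 0.0800. There the genes called in all fell as well, from 578 in the main fit to between 33 and 222. Over the 15 fits the estimate ran from −1.39 to −1.06. The call also ended without WT control replicate 4 and KO ezetimibe replicate 3 together, at −1.04 (limma adjusted p = 0.0551). In the authors' deposited table Slfn9 stood at −1.31 ± 0.388 on control (log2, SE, adjusted p = 0.0294). DESeq2 without a filter, run here on reads recovered from their values, gave the same numbers and is not a separate result. On ezetimibe that fit had Slfn9 at −1.15 and did not call it (DESeq2 adjusted p = 0.0846).

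In KO against WT, genes of dividing cells differed along with Slfn9. For the 13 proliferation genes the summed normalised counts were 2550 to 5153 in WT control, 2604 to 3650 in WT ezetimibe, 1673 to 2721 in KO control and 1981 to 2541 in KO ezetimibe. WT control replicates 2 and 4, the highest of their group for Slfn9, were so for this list as well, and KO control replicate 2 was the highest of its group for both. On control 5 of 13 fell in KO, where limma called 0.371% of all genes. Knl1, a kinetochore scaffold, fell by 1.56 ± 0.281 and Bub1, a spindle checkpoint kinase, by 1.91 ± 0.378 (log2, with SE, limma adjusted p = 0.0424 and 0.0470). On ezetimibe 0 passed, with 13 of 13 lower and a median of −0.67. Over both diets together, 10 of 13 fell, where limma called 4.04% of all genes. With ezetimibe, a difference between the list and Slfn9 was not tested. In WT 13 of 13 were lower (median −0.28) and in KO 11 of 13 were higher (median 0.41), with 0 called. Slfn9 had −0.18 and 0.00046 there. In each genotype the list median lay inside the interval given above for Slfn9. The interaction had an unadjusted p under 0.05 for 6 of 13 and for 7.02% of all genes, with 0 called. The part of cell division in the Slfn9 difference was not tested.

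Paneth cells, which lie in the crypts beside the dividing cells, had lower marker levels in KO on control as well. Their 7 markers had summed normalised counts of 19430 to 64881 in WT control and 10310 to 17141 in KO control, with a median of −1.67 (log2), 7 of 7 lower at an unadjusted p under 0.05 and 0 called by limma. On ezetimibe the sums were 9218 to 38177 in WT and 8390 to 14642 in KO, with 0 called. Over both diets together, 3 of 7 fell in KO, namely the alpha-defensins Defa22 by 1.44 ± 0.341 and Defa17 by 1.19 ± 0.316 and the protease Mmp7, which activates them, by 1.25 ± 0.319 (log2, with SE, limma adjusted p = 0.0328, 0.0476 and 0.0420). With ezetimibe, 7 of 7 were lower in WT (median −1.05, 6 at an unadjusted p under 0.05) and 6 of 7 in KO (median −0.09), with 0 called. Slfn9 had −0.18 with ezetimibe in WT. The part of Paneth cells in the Slfn9 difference was not tested.

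Slfn8 had 38.2, 24.5, 15.5 and 34.6 normalised counts in WT control and 30.6, 30.0, 30.2 and 21.4 in WT ezetimibe. It had 21.9, 25.3 and 21.7 in KO control and 21.4, 34.3, 43.2 and 25.6 in KO ezetimibe. All groups overlapped. Means were 28.2 ± 10.3, 28.1 ± 4.47, 23.0 ± 2.05 and 31.1 ± 9.68 (SD, n = 4, 4, 3 and 4, in that order). The log2 fold changes were −0.21 ± 0.304 and 0.11 ± 0.281 in KO on control and ezetimibe, and 0.06 ± 0.281 and 0.38 ± 0.304 with ezetimibe in WT and KO (SE, limma adjusted p between 0.478 and 0.999). At 15 to 40 reads per library, the 95% intervals reached from −0.857 to 1.02, and differences within them were not detectable with these libraries. Across the 15 libraries the log2 levels of Slfn8 and Slfn9 correlated with r = 0.0598, as a description.

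The intermediate gene Slfn4 was the second in level, and no comparison had an unadjusted p under 0.05. It had 302, 239.8, 465 and 249 normalised counts in WT control, 251, 367, 374 and 539 in WT ezetimibe, 297, 289 and 282 in KO control, and 229, 374, 511 and 306 in KO ezetimibe. Every pair of groups overlapped, and the 3 KO control libraries lay within a narrow band. Means were 314 ± 104, 383 ± 119, 289 ± 7.72 and 355 ± 119.8 (SD, n = 4, 4, 3 and 4, in that order). The log2 fold changes were −0.06 ± 0.276 and −0.12 ± 0.256 in KO on control and ezetimibe, and 0.29 ± 0.256 and 0.23 ± 0.276 with ezetimibe in WT and KO (SE, limma adjusted p between 0.644 and 0.999). The 95% intervals ran from −0.662 to 0.832. Slfn4 is known from myeloid cells, whose 13 macrophage markers had summed normalised counts of 643 to 1539 in WT control, 681 to 1002 in WT ezetimibe, 1004 to 1224 in KO control and 392 to 656 in KO ezetimibe. These markers had a median of −1.49 (log2) with ezetimibe in KO, with 10 of 11 lower and 1 called, C1qc, a complement subunit of macrophages, at −1.77 ± 0.376 (log2, SE, limma adjusted p = 0.0479).

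Slfn3 was close to the limit of detection. Normalised counts were 1.91, 2.72, 4.12 and 2.04 in WT control, 3.17, 1.88, 2.83 and 0.928 in WT ezetimibe, 4.87, 0.905 and 0 in KO control, and 0, 2.14, 3.5 and 2.13 in KO ezetimibe. These stand for 0 to 6 reads per library and 34 reads in all, and the groups overlapped. A difference between groups was not detectable at this depth, and given the stretches shared with the far more abundant Slfn4, reads in those stretches cannot be told apart between them.

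Slfn1, the other short gene, was low as well. It had 8.59, 9.99, 12.4 and 4.08 normalised counts in WT control, 10.6, 14.1, 17.0 and 9.28 in WT ezetimibe, 5.68, 3.62 and 6.5 in KO control, and 7.5, 4.29, 12.8 and 5.33 in KO ezetimibe. That was 4 to 18 reads per library. It passed the filter through 5 libraries, 3 of them WT ezetimibe, so the group where it was high decided that it was tested. The KO control libraries lay below the WT ezetimibe libraries and overlapped the other groups. In KO the log2 fold change was −0.58 ± 0.416 on control and −0.76 ± 0.385 on ezetimibe, and with ezetimibe it was 0.54 ± 0.385 in WT and 0.37 ± 0.416 in KO (SE, limma adjusted p between 0.324 and 0.999).

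For each tested member, the 3 genes outside the family whose log2 levels were most alike over the 15 libraries were listed by Pearson's r. This is a description across libraries that share groups, and no p-value is given. For Slfn2 they were Sp110 (r = 0.948), a nuclear body protein induced by interferon, H2-Q6 (r = 0.947), of the family that presents antigens to CD8+ T cells, and Shisa5 (r = 0.935). With group means removed, r was 0.756, 0.815 and 0.805. For Slfn5 they were Phf11d (r = 0.934), Lypd8 (r = 0.914), which keeps bacteria from the epithelium, and Bst2 (r = 0.904), an interferon-induced antiviral protein. For Slfn9 they were Nek2 (r = 0.969), a centrosomal kinase, Ccna2 (r = 0.967), a cyclin of S and G2 phase, and Rrm1 (r = 0.967), a subunit of ribonucleotide reductase. With group means removed these 3 were at 0.943, 0.939 and 0.925. For Slfn1 they were Lcp2 (r = 0.887), an adaptor of T cell receptor signalling, Ifi206 (r = 0.859) and Trgv7 (r = 0.858), a variable segment of the gamma chain of the T cell receptor. For Slfn4 they were Trim40 (r = 0.897), Kdm7a (r = 0.865) and 9630028B13Rik (r = 0.851), and for Slfn8 Klhdc8a (r = 0.821), Nebl (r = 0.806) and Btbd11 (r = 0.779). Between members, the highest r was 0.875 for Slfn2 and Slfn5 (0.668 with group means removed), followed by 0.729 for Slfn1 and Slfn2 (0.442).

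Slfn10-ps had 1.82 to 12.2 normalised counts, and its log2 fold changes were −0.58 and 0.14 in KO and 0.60 and 1.32 with ezetimibe. It passed the filter through 5 libraries, 4 of them on ezetimibe, so the groups where it was high decided that it was tested. Slfnl1, which lies outside the cluster, had 2 reads in all and was not tested, and Slfn14 was not analysed here. Of the tested genes in and beside the cluster that are not members, 8 are described, among them the flanking genes Nle1, Rad51d and Rffl on one side and Ap2b1 on the other. Limma called 0 of the 8 in each of the 4 comparisons, with a smallest adjusted p of 0.264 and 0.223 in KO on control and ezetimibe and of 0.999 and 0.130 with ezetimibe in WT and KO. Their log2 fold changes reached as low as those of the members in KO, with −1.29 for Gm11427 on control. Gm11427 is a pseudogene with a mean of only 7.27 normalised counts, so its value is uncertain. Nle1, a ribosome assembly factor, had −0.86 on control and −1.42 on ezetimibe. Over both diets together, limma called Nle1 lower in KO, at −1.14 (log2, limma adjusted p = 0.0405). Slfn2 and Slfn9 were called lower in that average as well.

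**Figure D4:**
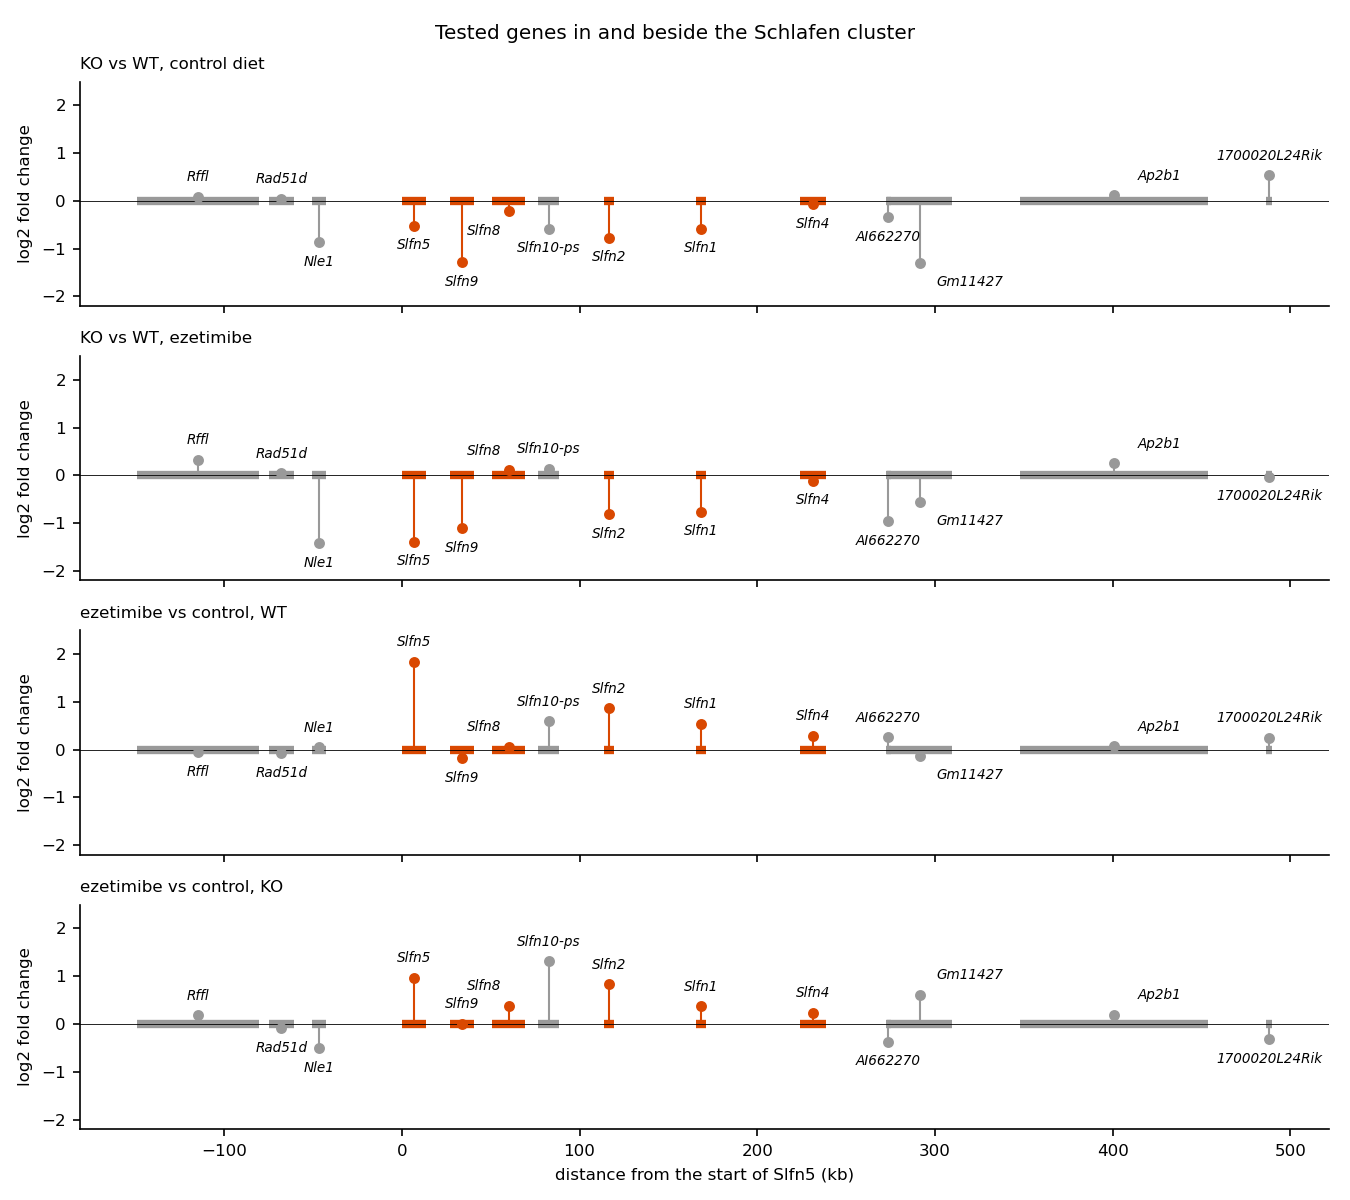
Log2 fold changes (y axis, on log2(normalised count + 1)) of tested genes in and beside the Schlafen cluster by distance from the start of Slfn5 in kb (x axis), with 1 panel per comparison. Points are limma estimates and thick bars on the zero line gene bodies, members in orange and other genes in grey. Slfn5 stands out in the panel for ezetimibe in WT (1.84), and the flanking genes Rffl, Rad51d and Ap2b1 stay near 0 there, while Nle1 reaches −1.42 in the panel for KO on ezetimibe.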

How the data were processed

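TRIzol was used for total RNA of frozen tissue and NEBNext Ultra II RNA reagents for the libraries, per the labels' protocols. The submitters' processing notes name STAR 2.6.0c, DESeq2, FastQC and the build mm10. No source used here gives the read counter, the annotation or the use of strand. The authors deposited a signal, DESeq2-normalised counts of 26844 genes in 15 libraries, per the file headers. Whole reads were recovered, since 100% of the values were multiples of what 1 read is worth in that library (tolerance 1e-6). The authors also deposited 2 tables of their KO against WT comparisons with a mean signal, a log2 fold change, a fold change (ratio), a Wald score and a p-value with its adjusted value, per the file headers, used only where the text names that table.

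Groups were taken from the labels. The main test was limma 3.58.1 (R 4.3.3) on log2(value + 1) with a trend of the variance, in 1 model of 15 libraries and 4 group means, for genes with at least 10 in at least 3 libraries, with Benjamini-Hochberg adjustment. It was tested on simulated data first. The values were normalised, so count tests on recovered reads were alternatives, with edgeR 4.0.16, DESeq2 1.42.0 and limma-voom. Other alternatives were TMM or quantile scaling, pseudocounts of 0.5 and 5, no filter, a filter on a mean of 50, the compared groups alone, robust moderation, a replicate block and each library left out. DESeq2 without a filter, a fit without WT control replicate 4 and KO ezetimibe replicate 3, and the 2 averaged contrasts were added after seeing the data. Identity and shared stretches came from GENCODE M21 and promoters from RefSeq (GRCm38.p6), read with Biopython 1.88. Figures used matplotlib 3.10.9.

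The members, the gene lists and the tests were chosen with earlier results of these data known. The naming rule took all members, other Slfn symbols, at most 5 genes per list and comparison with the smallest p, the 3 most alike genes per member, and the genes of the cluster with the nearest 3 on each side. Some genes that this rule takes are not reported here.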

Additional observations from a re-analysis of the deposited data

Results flagged for a closer look

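Slfn8 in WT ezetimibe replicate 4 had 21.4 normalised counts, while the other 3 libraries of its group had 30.0 to 30.6. Its gap to the nearest library was 0.938 of the group's range, above the 95% critical value of Dixon's test for 4 samples. It was the 1 such library among 21 groups of 4 examined, and chance flags about 1 in 20 groups. The value stands for 23 reads, and the cause was not tested.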

How the results depend on the processing

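The members gave 1006 values under the alternatives, of which 914 kept their direction and their side of the threshold, 55 changed sign, 20 passed only in the alternative and 17 only in the main result. Slfn2 and Slfn5 in the 4 comparisons and Slfn9 in KO against WT on both diets changed sign in 0 of 215 values. The median over all genes lay between −0.0168 and 0.0173 under TMM and quantile scaling. Slfn1 and Slfn8 have no value under the filter on a mean of at least 50. Slfn1 and Slfn3 rest on few reads, and 3 or 4 libraries per group limit all members.

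DESeq2 on recovered reads called 2 members in KO on control, 1 in KO on ezetimibe, 2 with ezetimibe in WT and 1 in KO, both with the filter and without it. With the filter, genes called in all were 442, 86, 94 and 1155 in these comparisons. Averaged over both genotypes, limma-voom left 1 member with ezetimibe, as did the fit without WT control replicate 4 and KO ezetimibe replicate 3, the ends of the first principal component, which also left 1 member in KO over both diets. Leaving out 1 library gave 0 members called in KO against WT on either diet. It gave 0 to 1 with ezetimibe in WT and 0 to 1 in KO. It gave 0 to 3 in KO over both diets and 1 to 2 with ezetimibe over both genotypes. Genes called in all moved as well. In KO over both diets they were 578 in the main fit and 33 without KO control replicate 1, where 0 members were called. With ezetimibe in KO they were 104 in the main fit and 456 without KO ezetimibe replicate 4, where 1 member was called.

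The replicate numbers were not taken to pair the libraries, because the labels give no shared source and not every same-numbered pair correlated over 0.1. Of 21 such pairs 12 did (median 0.125, from −0.242 to 0.331), so whether the numbers mark a shared origin is not known. With the replicate number as a block, 1 member (Slfn2) was called in KO on control (−0.886, limma adjusted p = 0.0266, 231 genes in all), with ezetimibe in WT (0.869, 0.0351, 54 genes) and with ezetimibe in KO (0.939, 0.00906, 1915 genes). Under that block Slfn9 with ezetimibe in KO became −0.0693 and the Slfn2 interaction 0.0705.

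Other sign changes touched values near 0, and their cause was not tested. Slfn9 with ezetimibe in KO became −0.00311 with a pseudocount of 5, −0.00982 with TMM, −0.0818 with edgeR, −0.0711 with DESeq2, −0.0716 without its filter and −0.000201 with limma-voom. Slfn8 with ezetimibe in WT became −0.0114 with edgeR, −0.0120 with DESeq2 and −0.0113 without its filter. DESeq2 gave interactions of 0.000636 for Slfn2 and 0.00757 for Slfn4 (0.00628 without its filter), and quantile scaling gave 0.128 for Slfn8 in KO over both diets. Without those 2 libraries of the first component, Slfn8 in KO on ezetimibe became −0.0595, Slfn9 with ezetimibe 0.101 in WT and 0.0744 over both genotypes, and the interactions of Slfn2 and Slfn9 0.00377 and −0.0525. With 1 library left out, KO against WT ranged from −0.176 to 0.141 (Slfn4, control), −0.314 to 0.0709 (Slfn4, ezetimibe), −0.0595 to 0.267 (Slfn8, ezetimibe), −0.189 to 0.0113 (Slfn4, both diets) and −0.175 to 0.0334 (Slfn8, both diets). Ezetimibe against control ranged from −0.194 to 0.223 (Slfn8, WT), −0.424 to 0.101 (Slfn9, WT), −0.267 to 0.377 (Slfn9, KO) and −0.221 to 0.101 (Slfn9, both genotypes). Interactions ranged from −0.444 to 0.110 (Slfn1), −0.176 to 0.168 (Slfn2), −0.260 to 0.136 (Slfn4) and −0.100 to 0.553 (Slfn9).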
